A study of Mus musculus with 4 samples.

Results

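The genes described here make up the machinery that modifies, exports, trims and cross-links collagen. They are 34 mouse genes of the 55487 genes in the deposited count table. They were chosen by symbol, from a list drawn up with earlier results of these data known. All 34 were found by their Ensembl identifiers in the GENCODE M21 annotation of GRCm38, and all 34 had enough reads to be tested. They comprise 4 prolyl 4-hydroxylase genes, 5 genes of lysyl hydroxylation and glycosylation, 6 of the prolyl 3-hydroxylase complex and its relatives, 5 chaperones, 5 export genes, 4 genes of procollagen processing and 5 lysyl oxidases.

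They were measured by bulk RNA-seq in skeletal stem cells of wild-type (WT) mice, with 2 libraries from ovariectomized mice (Ovx 1 and Ovx 2) and 2 libraries from sham-operated mice (Sham 1 and Sham 2). All 4 samples are labelled 8 weeks, which could be an age or a time since surgery. Cells were released from long bone metaphyses with collagenase and sorted by flow cytometry on 8 surface antigens, CD51, CD200, CD105, 6C3, CD90, Tie2, CD45 and Ter119. Ovariectomy takes away the ovaries, the chief producers of oestrogen, and is widely used to model bone loss after menopause. Nothing in the labels says whether the libraries of a group came from separate animals or pools, so p-values reflect how far these samples differ from each other, and that spread may be technical.

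Fibrillar collagen is built in the endoplasmic reticulum (ER), where prolines and lysines of the growing chain are hydroxylated, some hydroxylysines receive sugars, and chaperones hold the triple helix together. The folded procollagen is too large for an ordinary transport vesicle and needs dedicated export factors. Outside the cell its end pieces are cut off, and lysyl oxidases then join neighbouring molecules by covalent cross-links. Bone and cartilage cells depend on every one of these steps, and inherited defects in many of these genes cause brittle bones, lax joints or cartilage malformation in humans.

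The libraries held between 18291436 and 23721078 counts. Levels are given as CPM, counts per 1000000 counts of a library after TMM scaling, and a single count was worth between 0.0423 and 0.0519 CPM. As to cell identity, 6 chondrocyte markers summed to 60055 and 54725 CPM in Ovx 1 and 2, against 102410 and 94381 CPM in Sham 1 and 2. The 6 osteoblast markers summed to 71143 and 65148 CPM in Ovx 1 and 2, against 77938 and 106573 CPM in Sham 1 and 2. The 6 skeletal stem and progenitor markers summed to 599 and 614 CPM in Ovx 1 and 2, against 404 and 507 CPM in Sham 1 and 2. Cd200, a marker of this list given next, was lower in Ovx, opposite to the sums. Of the sort antigens, Itgav (CD51) was at 69.002 and 71.99 CPM in Ovx and 70.4 and 67.3 CPM in Sham libraries and Cd200 at 173 and 155 CPM in Ovx and 237 and 305 CPM in Sham libraries. Tek (Tie2) was at 7.53 and 9.76 CPM in Ovx and 0.223 and 5.52 CPM in Sham libraries, and Ptprc (CD45) at 3.55 and 6.44 CPM in Ovx and 9.55 and 5.25 CPM in Sham libraries. The Sham libraries stood further apart from each other than the Ovx libraries, with an SD of log2 differences across genes of 0.789 in the Ovx pair and 1.06 in the Sham pair.

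Of the collagen machinery, 5 genes were called lower after ovariectomy and 2 were called higher. Serpinh1, P3h1, Colgalt2, P4ha2 and Pcolce2 were between 1.45-fold and 1.70-fold lower, while Loxl1 rose 2.56-fold and Pcolce 1.56-fold. In all, 7 members were called at an edgeR adjusted p under 0.05, where 4.18% of the 17120 genes tested were called. The 5 called lower were 14.7% of the members, where 1.20% of all genes tested were called lower. The 2 called higher made up 5.88% of the members, where 2.98% of all genes tested were called higher. Both Ovx libraries lay below both Sham libraries for 20 members (58.8%, against 23.9% of all genes tested) and above both for 4 (11.8%, against 25.5%). The median log2 fold change was -0.31 over the 34 members and -0.02 over all genes tested. A log2 fold change below 0 was found for 28 members, and for 51.3% of all genes tested. The other 6 were Loxl1, P4ha3, Pcolce, Tll1, Plod1 and Fkbp7. Because the members were chosen with earlier results of these data known, these shares and medians describe the list and are no test of it. In bulk RNA, fewer cells of a type and less RNA per cell cannot be told apart, and the part of the chondrocyte and osteoblast marker sums above in these values was not tested.

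The calls depended on which libraries and which scaling were used. Without Ovx 1 or without Ovx 2, edgeR called 0 members and 0 genes in all, with 15 members without Ovx 1 (9.23% of all genes) and 10 without Ovx 2 (8.40% of all genes) at an unadjusted p under 0.05, so every edgeR call below needs both Ovx libraries. With all 4 libraries 18.4% of all genes had an unadjusted p under 0.05. In those fits without an Ovx library the lone Ovx library was taken to vary like the Sham pair. With library totals in place of TMM, which raised the median of all genes by 0.11 log2 units, 718 genes were called higher and 156 lower, against 510 higher and 206 lower with TMM. A change of scaling shifts all genes by nearly the same amount. The members' median therefore stayed 0.29 below that of all genes, as with TMM, which is no separate check. Among the members, Pcolce2 alone was then called lower (0.911% of all genes), and Loxl1 and Pcolce were called higher (4.19% of all genes).

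Other choices gave as many or more lower calls. The DESeq2 test called 11 members lower (2.84% of all genes) and 2 higher (5.43%), limma-voom 10 lower (1.83%) and 2 higher (3.70%). Members called lower by edgeR numbered 9 with genes kept at a mean of 5 CPM (4.02%) and 7 without a filter (1.51%). The 6 called lower under upper-quartile scaling (1.45% of all genes), with a GC and length offset (1.42%) and with a replicate block (1.92%) were the 5 and Loxl3. Without Sham 1, 7 members were called lower (2.17% of all genes) and 3 higher (4.62%), and without Sham 2, 5 lower (2.90%) and 2 higher (6.64%).

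**Figure D1:**
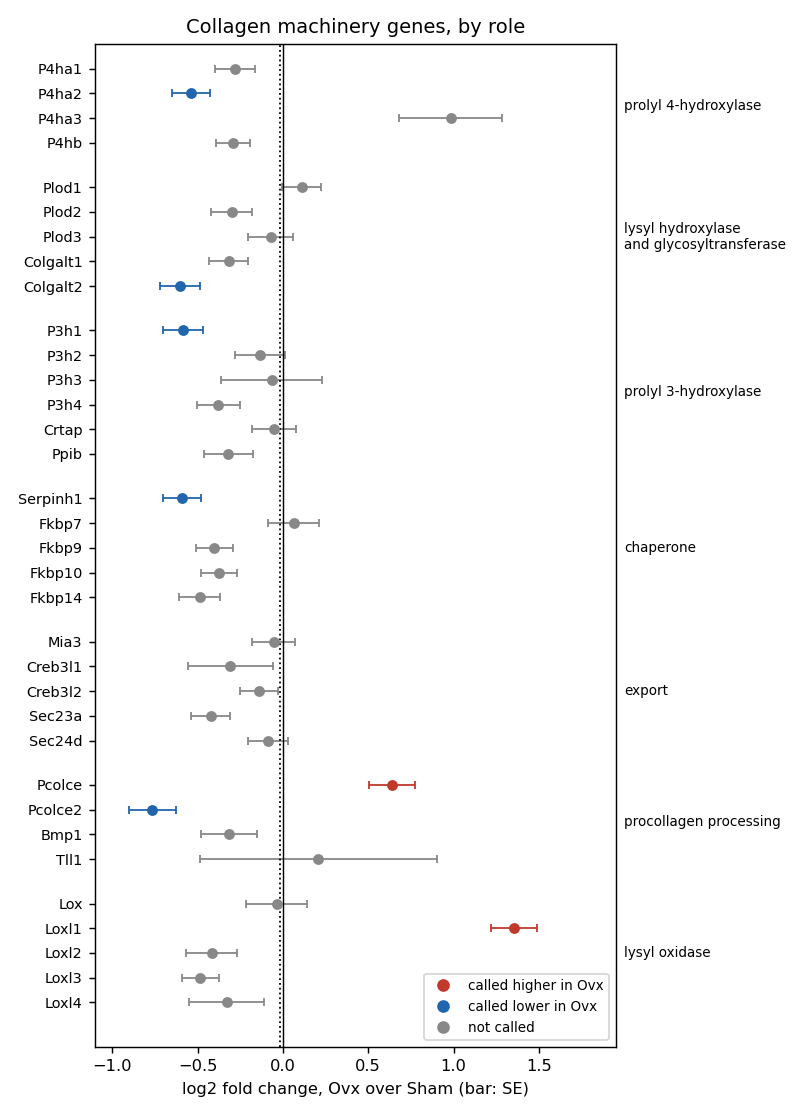
Log2 fold change (Ovx over Sham, horizontal axis) of each of the 34 members with its SE, grouped by role; blue members were called lower, red ones higher, grey ones neither, and the dotted line is the median of all genes tested (-0.02). Most points lie left of 0, with Loxl1 (1.36), P4ha3 (0.98) and Pcolce (0.64) furthest to the right.

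Promoter sequence is shown for the called members with a RefSeq window (GRCm38.p6). Loxl1, called higher, and Colgalt2, called lower, had no window and are not shown. RefSeq windows of 300 bases, from 250 before to 50 after the start, were matched for 23 of the 34 members. Each stretch below is 120 bases, read 5′ to 3′ on the gene's strand, with the GC box GGGCGG (either strand) in capitals. Serpinh1 (chr7:99353240-99353359, minus strand), P3h1 (chr4:119232795-119232914, plus strand) and P4ha2 (chr11:54100804-54100923, plus strand) end at the base before the RefSeq start. Pcolce2 (chr9:95637480-95637599, plus strand) ends 29 bases and Pcolce (chr5:137611489-137611608, minus strand) 85 bases before the RefSeq start, so that no exon annotated further upstream is included. The P4ha2 and Pcolce stretches lie before internal RefSeq starts, inside the genes as GENCODE M21 bounds them.
Serpinh1: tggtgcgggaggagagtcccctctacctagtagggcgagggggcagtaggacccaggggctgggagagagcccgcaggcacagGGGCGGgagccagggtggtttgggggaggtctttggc
P3h1: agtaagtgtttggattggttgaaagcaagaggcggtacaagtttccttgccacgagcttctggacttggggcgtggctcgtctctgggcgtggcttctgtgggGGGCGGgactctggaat
P4ha2: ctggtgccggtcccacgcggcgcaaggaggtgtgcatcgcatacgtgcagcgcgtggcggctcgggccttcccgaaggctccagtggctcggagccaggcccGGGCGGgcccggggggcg
Pcolce2: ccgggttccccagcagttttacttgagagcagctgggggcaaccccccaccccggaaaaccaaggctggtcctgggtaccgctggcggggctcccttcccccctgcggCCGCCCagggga
Pcolce: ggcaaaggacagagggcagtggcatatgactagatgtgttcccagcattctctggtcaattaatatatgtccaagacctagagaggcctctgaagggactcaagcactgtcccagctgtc
A GC box lay in these stretches of the 4 genes that fell. The Pcolce stretch was cut before the GC box of its window, at 60 bases before the start. Its lack of a box therefore follows from the cut, and every gene shown held a GC box in its window. Over whole windows, 19 of the 23 members held GGGCGG (82.6%), as did 64.7% of tested genes with a window and 38.2% of all genes with one. The 5 letters CCACG, part of several ER stress elements, were in 16 of the 23 (69.6%), against 49.4% of tested genes and 35.5% of all genes. In all, 18 motifs were searched on both strands, and those given here were picked after their matches were seen.

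Prolyl 4-hydroxylases make the 4-hydroxyproline that keeps the collagen helix stable at body temperature, as tetramers of an alpha subunit that carries the active site and the beta subunit P4hb. Of the 4 genes, 1 was called lower (1.20% of all genes) and 0 higher (2.98%). P4ha2 (ENSMUSG00000018906, chromosome 11, 54100095 to 54131665, plus strand), an alpha subunit, had 271 and 263 CPM in Ovx 1 and 2, against 404 and 371 CPM in Sham 1 and 2. It was 1.45-fold lower (log2 fold change -0.54 with SE 0.11, edgeR adjusted p = 0.0434), with no overlap between the groups. The call ended when scaled by library totals (edgeR adjusted p = 0.0862) and when Sham 1 was left out (edgeR adjusted p = 0.0599). P4ha1, the alpha subunit of most tissues, had 212 and 215 CPM in Ovx 1 and 2, against 245 and 274 CPM in Sham 1 and 2 (log2 fold change -0.28 with SE 0.12, edgeR adjusted p = 0.255). P4hb, which is also protein disulfide isomerase, was the second most abundant member per exon length, with 2144 and 1911 CPM in Ovx 1 and 2, against 2401 and 2566 CPM in Sham 1 and 2 (log2 fold change -0.29 with SE 0.10, edgeR adjusted p = 0.177). Neither passed the test, although both were lower in each Ovx library than in either Sham library. P4ha3, the least abundant alpha subunit, had 250 and 209 counts in Ovx 1 and 2 and 143 and 100 counts in Sham 1 and 2 (log2 fold change 0.98 with SE 0.30, edgeR adjusted p = 0.133), and was called higher only without Sham 1 among the alternatives run (edgeR adjusted p = 0.0362). Per exon length, P4ha2 made up 44.1% and 43.0% of the 3 alpha subunits in Ovx 1 and 2, against 51.2% and 46.6% in Sham 1 and 2.

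Lysyl hydroxylases make hydroxylysine, the residue from which stable cross-links and sugar attachments start, and galactosyltransferases add the first sugar. Of these 5 genes, 1 was called lower (1.20% of all genes) and 0 higher (2.98%). Colgalt2 (ENSMUSG00000032649, chromosome 1, 152399830 to 152510695, plus strand), a collagen galactosyltransferase, had 374 and 403 CPM in Ovx 1 and 2, against 626 and 555 CPM in Sham 1 and 2. It was 1.52-fold lower (log2 fold change -0.60 with SE 0.12, edgeR adjusted p = 0.0338), again with both Ovx libraries below both Sham libraries, and missed the threshold when scaled by library totals (edgeR adjusted p = 0.0713). Its paralog Colgalt1 had 231 and 222 CPM in Ovx 1 and 2, against 268 and 296 CPM in Sham 1 and 2 (log2 fold change -0.32 with SE 0.12, edgeR adjusted p = 0.196). Colgalt1 did not pass, and 11.4% of its exon length is shared with Unc13a on the other strand.

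Plod2, which hydroxylates the lysines of the non-helical ends of collagen and so sets the type of cross-link, was the most abundant lysyl hydroxylase. It had 652 and 570.2 CPM in Ovx 1 and 2, against 795 and 711 CPM in Sham 1 and 2 (log2 fold change -0.30 with SE 0.12, edgeR adjusted p = 0.233). Plod1, which acts on lysines of the helix, had 235 and 258 CPM in Ovx 1 and 2, against 225 and 233 CPM in Sham 1 and 2 (log2 fold change 0.11 with SE 0.11, edgeR adjusted p = 0.713), and Plod3, which also carries glucosyltransferase activity, had 101 and 97.9 CPM in Ovx 1 and 2, against 97.3 and 112 CPM in Sham 1 and 2 (log2 fold change -0.07 with SE 0.13, edgeR adjusted p = 0.858). None of the 3 passed. Plod2 was lower in both Ovx libraries, Plod1 slightly higher in both, and Plod3 overlapped between the groups. By exon length Plod2 made up 67.9% and 63.9% of the 3 genes in Ovx 1 and 2, against 72.9% and 69.1% in Sham 1 and 2.

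The prolyl 3-hydroxylase complex of P3h1, Crtap and Ppib modifies a few prolines of fibrillar collagen and also helps the chains to fold. Of the 6 genes of this group, 1 was called lower (1.20% of all genes) and 0 higher (2.98%). All 6 log2 fold changes were below 0 (-0.59 to -0.05). P3h1 (ENSMUSG00000028641, chromosome 4, 119232915 to 119248975, plus strand), the enzyme of the complex, had 404 and 352 CPM in Ovx 1 and 2, against 562 and 572 CPM in Sham 1 and 2. It was 1.501-fold lower (log2 fold change -0.59 with SE 0.11, edgeR adjusted p = 0.0368), without overlap, and scaling by library totals ended the call (edgeR adjusted p = 0.0564). Crtap, its non-catalytic partner, had 307 and 265 CPM in Ovx 1 and 2, against 276 and 316 CPM in Sham 1 and 2 (log2 fold change -0.05 with SE 0.13, edgeR adjusted p = 0.903). The Crtap values overlapped between the groups. Ppib (cyclophilin B), a prolyl isomerase, had 81.6 and 69.4 CPM in Ovx 1 and 2, against 99.2 and 89.5 CPM in Sham 1 and 2 (log2 fold change -0.32 with SE 0.14, edgeR adjusted p = 0.293), and shares 24.96% of its exon length with Snx22 on the other strand.

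P3h4, which assembles with P3h3 and lysyl hydroxylase 1 in mouse skin and bone, had 299 and 252 CPM in Ovx 1 and 2, against 367 and 349 CPM in Sham 1 and 2 (log2 fold change -0.38 with SE 0.13, edgeR adjusted p = 0.160). P3h4 was called lower by the DESeq2 test alone among the alternatives run (DESeq2 adjusted p = 0.0408). P3h3 was low and uneven in Sham cells, at 20.2 and 19.4 CPM in Ovx and 14.6 and 26.9 CPM in Sham libraries (log2 fold change -0.07 with SE 0.29, edgeR adjusted p = 0.954). P3h2, which acts mainly on basement membrane collagen, stood at 41.1 and 44.6 CPM in Ovx and 44.1 and 49.998 CPM in Sham libraries (log2 fold change -0.13 with SE 0.15, edgeR adjusted p = 0.731), and 28.4% of its exon length overlaps an annotated gene on the other strand.

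Chaperones hold procollagen in the ER. Of the 5 genes, 1 was called lower (1.20% of all genes) and 0 higher (2.98%). Fkbp7 was the 1 gene whose log2 fold change was not below 0. Serpinh1 (ENSMUSG00000070436, chromosome 7, 99345376 to 99353239, minus strand), or HSP47, the chaperone specific to procollagen, was the most abundant member of the whole machinery, with 1861 CPM per kb in Ovx and 2802 CPM per kb in Sham cells. It had 4900.5 and 4190.2 CPM in Ovx 1 and 2, against 7297 and 6393 CPM in Sham 1 and 2. Every Ovx value was below every Sham value, a 1.51-fold difference (log2 fold change -0.59 with SE 0.11, edgeR adjusted p = 0.0325), and scaling by library totals ended the call (edgeR adjusted p = 0.0568).

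The FK506-binding proteins of this group are prolyl isomerases of the ER, and Fkbp10 (FKBP65) is needed for hydroxylation of the collagen ends by lysyl hydroxylase 2. Fkbp9 had 899 and 792 CPM in Ovx 1 and 2, against 1124 and 1110.1 CPM in Sham 1 and 2 (log2 fold change -0.40 with SE 0.11, edgeR adjusted p = 0.0951). For Fkbp10 the values were 773 and 689 CPM in Ovx 1 and 2, against 949 and 948 CPM in Sham 1 and 2 (log2 fold change -0.38 with SE 0.11, edgeR adjusted p = 0.109), and for Fkbp14 they were 119.7 and 122 CPM in Ovx 1 and 2, against 160.5 and 178 CPM in Sham 1 and 2 (log2 fold change -0.49 with SE 0.12, edgeR adjusted p = 0.0776). In all 3 the Ovx libraries lay below the Sham libraries, and none passed in the chosen edgeR fit. The DESeq2 test and limma-voom called all 3 lower (DESeq2 adjusted p between 0.00594 and 0.0115, limma-voom adjusted p between 0.0328 and 0.0423). Fkbp7 had 67.6 and 61.8 CPM in Ovx 1 and 2, against 56.02 and 67.8 CPM in Sham 1 and 2, which overlapped (log2 fold change 0.06 with SE 0.15, edgeR adjusted p = 0.900).

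Fkbp10 and P3h4 are neighbours on chromosome 11. P3h4 on the minus strand ends at 100414836 and Fkbp10 on the plus strand starts at 100415697, so the starts of the 2 genes face away from each other with 860 bases between them. Their log2 fold changes were both -0.38 (SE 0.13 for P3h4 and 0.11 for Fkbp10). The next closest pair of members, Plod3 and Pcolce on chromosome 5, lay 608454 bases apart.

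**Figure D2:**
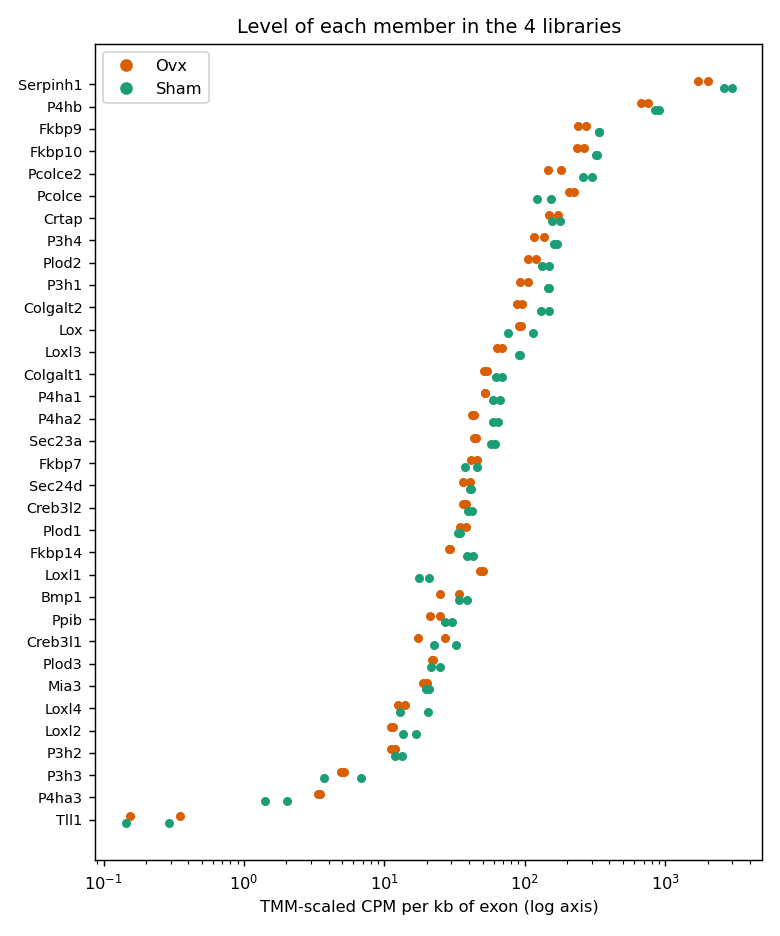
Level of each member as TMM-scaled CPM per kb of exon (log axis), ordered by its mean over the 4 libraries; orange points are the Ovx libraries and green points the Sham libraries. Serpinh1 (1861 CPM per kb in Ovx and 2802 CPM per kb in Sham cells) and P4hb lead, the upper rows have mostly orange left of green, and Pcolce and Loxl1 show the opposite.

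The export genes put procollagen into enlarged COPII vesicles or control that step. Of these 5, 0 were called in either direction by edgeR, with 1 of 5 at an unadjusted p under 0.05 (18.4% of all genes), and the DESeq2 test and limma-voom each called 1 lower, which was Sec23a. Sec23a, the inner coat subunit, had 210.5 and 217 CPM in Ovx 1 and 2, against 297 and 277 CPM in Sham 1 and 2 (log2 fold change -0.42 with SE 0.11, edgeR adjusted p = 0.0937). Its groups did not overlap, and it was called lower by the DESeq2 test (DESeq2 adjusted p = 0.00907), by limma-voom (limma-voom adjusted p = 0.0394) and with the filter at a mean of 5 CPM (edgeR adjusted p = 0.0391). Sec24d, the cargo-binding partner in the same coat, had 231 and 258 CPM in Ovx 1 and 2, against 262 and 258 CPM in Sham 1 and 2 (log2 fold change -0.09 with SE 0.12, edgeR adjusted p = 0.784). Mia3 (TANGO1), the receptor that links collagen to the coat at ER exit sites, had 83.4 and 89.4 CPM in Ovx 1 and 2, against 92.1 and 87.2 CPM in Sham 1 and 2 (log2 fold change -0.05 with SE 0.13, edgeR adjusted p = 0.900). The Mia3 values overlapped, and those of Sec24d nearly met.

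Creb3l2 (BBF2H7) is an ER-bound transcription factor known in mouse chondrocytes to switch on Sec23a, and Creb3l1 (OASIS) is its relative that drives type I collagen in mouse osteoblasts. Creb3l2 had 279 and 262 CPM in Ovx 1 and 2, against 308 and 288 CPM in Sham 1 and 2 (log2 fold change -0.14 with SE 0.11, edgeR adjusted p = 0.605). Creb3l1 was uneven in both groups, at 70.1 and 44.9 CPM in Ovx 1 and 2, against 59.1 and 83.6 CPM in Sham 1 and 2 (log2 fold change -0.31 with SE 0.25, edgeR adjusted p = 0.602). Neither passed the test, and with 1 library left out the log2 fold change of Creb3l1 was between -0.65 and -0.0092. The 2 coat genes are shown around the 8 letters TGACGTGG, an element of the unfolded protein response (capitals), 28 bases each, 5′ to 3′ on the gene's strand, in GRCm38.p6. The Sec23a stretch is chr12:59011994-59012021, minus strand, with the element starting at base 7 of the transcript, and the Sec24d stretch is chr3:123267460-123267487, plus strand, with the element starting 26 bases before the RefSeq start.
Sec23a: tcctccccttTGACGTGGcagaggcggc
Sec24d: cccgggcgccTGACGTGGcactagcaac
Sec23a and Sec24d were the 2 of 23 members with TGACGTGG in the window (8.70%), against 1.02% of tested genes with a window and 0.714% of all genes with one. The CCACG searched above lies within the reverse complement of these 8 letters, so both genes count there too.

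Procollagen loses its C-terminal propeptide to Bmp1 and the related Tll1, and the enhancers Pcolce and Pcolce2 speed that cut. The enhancers moved in opposite directions. Pcolce (ENSMUSG00000029718, chromosome 5, 137605103 to 137613784, minus strand) had 856 and 791 CPM in Ovx 1 and 2, against 469.7 and 588 CPM in Sham 1 and 2, a 1.56-fold rise (log2 fold change 0.64 with SE 0.13, edgeR adjusted p = 0.0462). Pcolce2 (ENSMUSG00000015354, chromosome 9, 95637601 to 95698096, plus strand) had 839 and 674 CPM in Ovx 1 and 2, against 1196 and 1378 CPM in Sham 1 and 2 and was 1.70-fold lower (log2 fold change -0.77 with SE 0.14, edgeR adjusted p = 0.0265). In neither gene did the groups overlap, and neither lost its call under any of the alternatives that kept all 4 libraries. The log2 fold change ranged from 0.49 to 0.82 for Pcolce and from -0.92 to -0.60 for Pcolce2 when 1 library was left out.

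The share of Pcolce in the pair restates these opposite calls and is given as a description. Of the counts of the 2 genes together, Pcolce took 50.5% in Ovx 1 (Wilson 95% interval 49.99 to 50.97%) and 54.0% in Ovx 2 (53.41 to 54.57%). In Sham 1 it took 28.2% (27.75 to 28.66%) and in Sham 2 29.9% (29.47 to 30.33%). Intervals cover counting error only. Per exon length the Pcolce share was 55.2% and 58.7% in Ovx 1 and 2, against 32.2% and 34.04% in Sham 1 and 2. This share does not depend on how the libraries are scaled.

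Bmp1, the main procollagen C-proteinase, had 299 and 219.9 CPM in Ovx 1 and 2, against 303 and 344 CPM in Sham 1 and 2 (log2 fold change -0.32 with SE 0.16, edgeR adjusted p = 0.377). The 2 Ovx values were below the Sham values, Ovx 1 only just, and the gene did not pass. With 1 library left out its log2 fold change was between -0.54 and -0.098. Tll1 had few reads, with 64 and 23 counts in Ovx 1 and 2 and 25 and 51 counts in Sham 1 and 2.

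**Figure D3:**
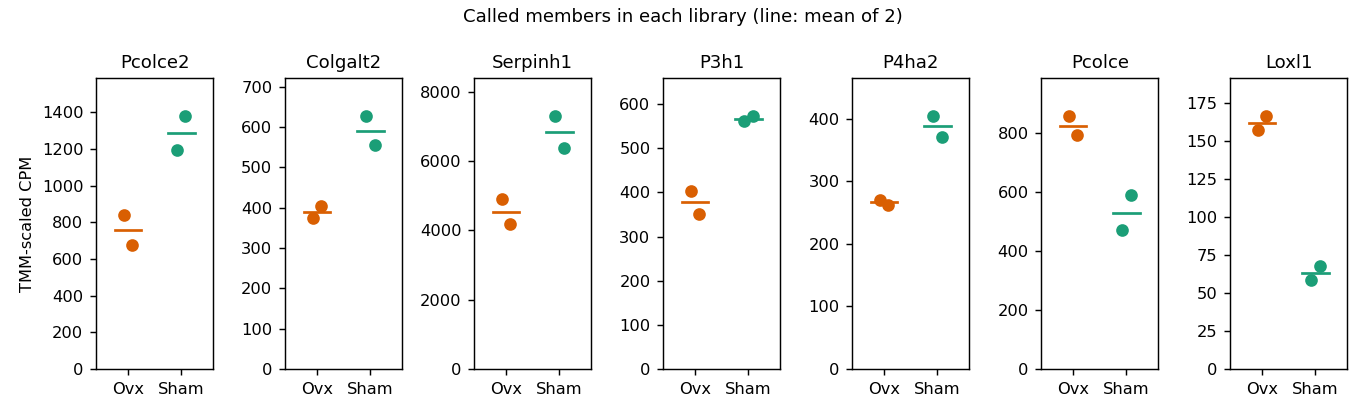
TMM-scaled CPM (vertical axis, from 0) of the 7 called members in each library, with Ovx libraries in orange, Sham libraries in green and a line at the mean of 2. Pcolce2, Colgalt2, Serpinh1, P3h1 and P4ha2 are lower in both Ovx libraries, and Pcolce and Loxl1 are higher in both.

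Lysyl oxidases oxidise lysine and hydroxylysine of collagen and elastin outside the cell, the step that starts cross-linking. Of 5 genes, 1 was called higher (2.98% of all genes) and 0 lower (1.20%). Loxl1 (ENSMUSG00000032334, chromosome 9, 58287738 to 58313186, minus strand), known in mice for its part in keeping elastic fibres intact, had 157 and 167 CPM in Ovx 1 and 2, against 58.5 and 68.03 CPM in Sham 1 and 2. It rose 2.56-fold (log2 fold change 1.36 with SE 0.14, edgeR adjusted p = 0.00439), the largest change of any member, with the groups far apart. Its log2 fold change stayed between 1.295 and 1.465 under the 9 alternatives that kept all 4 libraries, all of which called it. With 1 library left out the log2 fold change was between 1.25 and 1.48.

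None of the other 4 lysyl oxidases passed in the chosen fit. Lox, the founding member and the most abundant by mean level per exon length, had 447 and 436 CPM in Ovx 1 and 2, against 365 and 541 CPM in Sham 1 and 2 (log2 fold change -0.04 with SE 0.18, edgeR adjusted p = 0.958), with the Sham libraries on either side of the Ovx libraries. Loxl3 had 315 and 289 CPM in Ovx 1 and 2, against 418 and 428 CPM in Sham 1 and 2 (log2 fold change -0.48 with SE 0.11, edgeR adjusted p = 0.0599). Both Ovx values of Loxl3 lay below the Sham values, and it was called lower under 7 of the 9 alternatives with all 4 libraries, among them limma-voom (limma-voom adjusted p = 0.0186), the DESeq2 test (DESeq2 adjusted p = 0.000822) and the GC and length offset (edgeR adjusted p = 0.0420). Loxl2 had 62.5 and 60.4 CPM in Ovx 1 and 2, against 73.6 and 90.6 CPM in Sham 1 and 2 (log2 fold change -0.42 with SE 0.15, edgeR adjusted p = 0.187), without overlap. Loxl4 had 59.4 and 52.6 CPM in Ovx 1 and 2, against 54.7 and 86.1 CPM in Sham 1 and 2 (log2 fold change -0.33 with SE 0.22, edgeR adjusted p = 0.505), with Sham 1 among the Ovx values.

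The shares within the family, which for Loxl1 restate its call, are given as a description. Per exon length it made up 20.3% and 22.1% of the 5 lysyl oxidases in Ovx 1 and 2, against 8.39% and 7.81% in Sham 1 and 2. The Lox share was 39.7% and 40.0% in Ovx 1 and 2, against 36.1% and 42.9% in Sham 1 and 2. For Loxl3 the share was 29.1% and 27.5% in Ovx 1 and 2, against 43.0% and 35.2% in Sham 1 and 2. The Loxl1 shares were higher and the Loxl3 shares lower in both Ovx libraries, and the Lox shares overlapped.

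**Figure D4:**
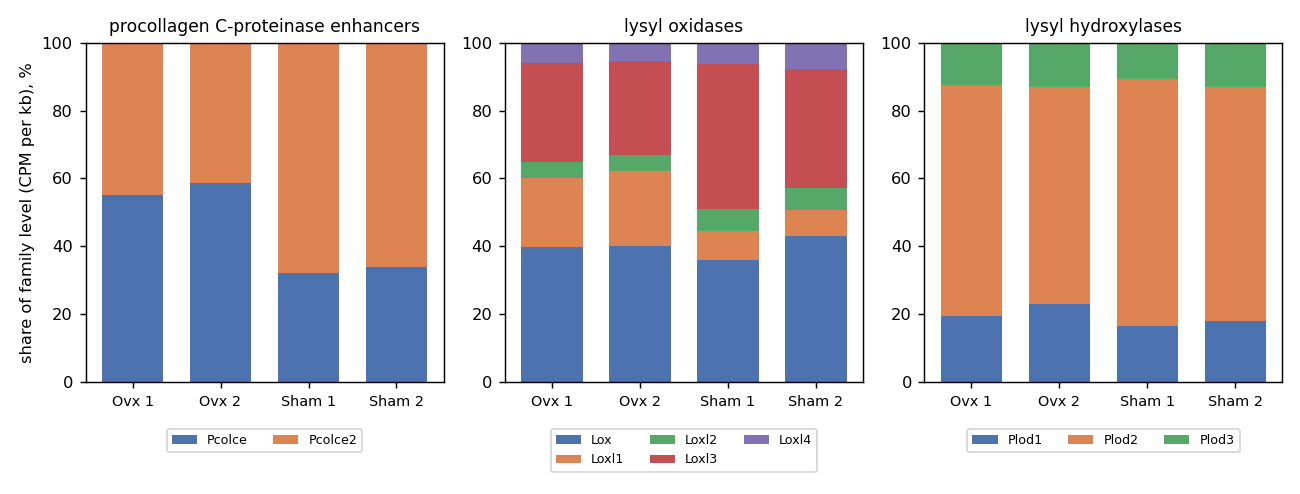
Share of each gene in the summed level (TMM-scaled CPM per kb of exon, percent) of its family in each library, Ovx libraries left of Sham libraries, for the C-proteinase enhancers, the lysyl oxidases and the lysyl hydroxylases. Pcolce holds 55.2% and 58.7% of its pair in Ovx and 32.2% and 34.04% in Sham libraries, and Loxl1 20.3% and 22.1% of its family in Ovx and 8.39% and 7.81% in Sham libraries.

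The collagens handled by this machinery were read next. Of 18 collagen chain genes, 7 were called lower and 2 higher (median log2 fold change -0.48). Col2a1, the main cartilage collagen, had 40259 and 36879 CPM in Ovx 1 and 2, against 73169 and 65394 CPM in Sham 1 and 2 (log2 fold change -0.85 with SE 0.08, edgeR adjusted p = 0.00434), and Col9a1, Col11a1 and Col11a2, its partners in cartilage fibrils, were 1.81-fold, 1.82-fold and 1.71-fold lower (edgeR adjusted p between 0.00482 and 0.00537). Those called higher were Col3a1, of soft connective tissue, at 2032 and 2934 CPM in Ovx 1 and 2, against 546 and 917 CPM in Sham 1 and 2 (log2 fold change 1.76 with SE 0.26, edgeR adjusted p = 0.0137), and the minor fibrillar chain Col5a3 (log2 fold change 3.01 with SE 0.40, edgeR adjusted p = 0.00910).

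The 18 chains summed to 133871 and 122500 CPM in Ovx 1 and 2, against 177923 and 200882 CPM in Sham 1 and 2. Set against that sum, Serpinh1 amounted to 3.66% and 3.42% in Ovx 1 and 2 and to 4.10% and 3.18% in Sham 1 and 2. These ratios overlapped, the Ovx values lying between the Sham values (exact permutation p = 1, two-sided). With 2 against 2 libraries that test cannot show that the ratios are equal. Col1a1, a large part of the sum, was uneven in Sham. It had 61075 and 57192 CPM in Ovx 1 and 2, against 62492 and 88749 CPM in Sham 1 and 2. Whether Serpinh1 follows single chains was not tested. P4hb amounted to 1.601% and 1.560% in Ovx 1 and 2, against 1.35% and 1.28% in Sham 1 and 2. All 34 members summed to 11.99% and 11.73% of the collagen sum in Ovx 1 and 2, against 11.2% and 9.83% in Sham 1 and 2. Without Pcolce and Loxl1 the other 32 summed to 11.23% and 10.95% in Ovx 1 and 2, against 10.93% and 9.502% in Sham 1 and 2, so that Ovx 2 and Sham 1 nearly met. For each of these sums and for P4hb the exact permutation test gave p = 0.333 (two-sided), the smallest that 2 against 2 allows, so it cannot pass the threshold.

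Genes of general protein folding and traffic had 0 edgeR calls, but some folding genes were called by DESeq2 and limma-voom. Of 23 other ER folding genes, 0 were called by edgeR, with 6 at an unadjusted p under 0.05 (18.4% of all genes) and a median log2 fold change of -0.09. The DESeq2 test called 3 lower (2.84% of all genes) and 1 higher (5.43%), and limma-voom 2 lower (1.83%) and 1 higher (3.70%). The 23 genes summed to 6554 and 6355 CPM in Ovx 1 and 2, against 7758 and 7390 CPM in Sham 1 and 2. The most abundant, Hspa5, had 2272 and 2297 CPM in Ovx 1 and 2, against 3088 and 2776 CPM in Sham 1 and 2 (log2 fold change -0.36 with SE 0.10, edgeR adjusted p = 0.0951). The genes of that list with the smallest p were Txndc5, a disulfide isomerase (log2 fold change 0.54 with SE 0.12, edgeR adjusted p = 0.0546), and Ppic, a relative of cyclophilin B (log2 fold change -0.56 with SE 0.13, edgeR adjusted p = 0.0652). Of 21 other COPII and large-cargo genes, 0 were called by edgeR, DESeq2 or limma-voom, with 1 at an unadjusted p under 0.05 in edgeR (18.4% of all genes) and a median of -0.06. These 21 summed to 3393 and 3318 CPM in Ovx 1 and 2, against 3637.0 and 3637.2 CPM in Sham 1 and 2. The smallest p there belonged to the vesicle fusion genes Sec22b (log2 fold change -0.33 with SE 0.12, edgeR adjusted p = 0.193) and Stx5a (log2 fold change -0.27 with SE 0.13, edgeR adjusted p = 0.317).

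Further steps outside the cell changed in both directions. Of 16 tested genes of propeptide removal and fibril assembly, 4 were called lower (1.20% of all genes) and 2 higher (2.98%). Their median log2 fold change was -0.11. Fbln5, an elastic fibre protein that binds Loxl1 in mice, had 176 and 199 CPM in Ovx 1 and 2, against 31.4 and 46.5 CPM in Sham 1 and 2 (log2 fold change 2.27 with SE 0.20, edgeR adjusted p = 0.00340). Fn1 (fibronectin) was the other gene of the list called higher, at 9706 and 11325 CPM in Ovx 1 and 2, against 5954 and 7164 CPM in Sham 1 and 2 (log2 fold change 0.68 with SE 0.12, edgeR adjusted p = 0.0242). Thbs1 (thrombospondin 1) was 1.71-fold lower, the fibril-binding proteoglycan Fmod 1.53-fold, a procollagen N-proteinase, Adamts3, 2.81-fold and the collagen-binding protein Sparc 1.56-fold (edgeR adjusted p between 0.00800 and 0.0415). Adamts3 was low, at 8.03 and 6.54 CPM in Ovx 1 and 2, against 17.9 and 23.1 CPM in Sham 1 and 2. The N-proteinases Adamts2 and Adamts14 were not called (log2 fold change 0.30 and 0.39). Adamts2 had 151 and 129 CPM in Ovx 1 and 2, against 85.8 and 141 CPM in Sham 1 and 2.

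Substrate supply and the hypoxia response, which in many cells raises P4ha1, Plod2 and Lox, were read as well. Of 11 genes of proline and ascorbate supply, 1 was called lower (1.20% of all genes) and 0 higher (2.98%), with a median log2 fold change of 0.10. The gene called lower was the amino acid transporter Slc38a2, at 359.9 and 359 CPM in Ovx 1 and 2, against 529 and 635 CPM in Sham 1 and 2 (log2 fold change -0.69 with SE 0.12, edgeR adjusted p = 0.0256). Of 15 hypoxia genes, 0 were called by edgeR, with 4 at an unadjusted p under 0.05 (18.4% of all genes) and a median of -0.07. The DESeq2 test (5.43% of all genes) and limma-voom (3.70%) each called 2 higher. The smallest p were those of Ndrg1 (log2 fold change 0.95 with SE 0.22, edgeR adjusted p = 0.0649) and the glycolytic regulator Pfkfb3 (log2 fold change 0.59 with SE 0.16, edgeR adjusted p = 0.101).

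Markers of several cell types moved in the same libraries. Over all genes tested, edgeR called 1.20% lower and 2.98% higher. Of the 6 chondrocyte markers 5 were called lower and of the 6 osteoblast markers 3, with the sums given above. Of 6 fibroblast and tendon markers 3 were called higher, and the list summed to 213 and 238 CPM in Ovx 1 and 2, against 35.8 and 64.6 CPM in Sham 1 and 2. Of 6 pericyte and smooth muscle markers 2 were called higher, with sums of 568 and 618 CPM in Ovx 1 and 2 and 304 and 332 CPM in Sham 1 and 2. In that list Rgs5 was at 295 and 361 CPM in Ovx 1 and 2, against 5.66 and 46.4 CPM in Sham 1 and 2. Cspg4, which made up most of the Sham sums, went the other way. It had 214 and 222 CPM in Ovx 1 and 2, against 284 and 266 CPM in Sham 1 and 2. No marker of these 4 lists was at 0 in any library. Col2a1 and Col9a1 stand in both the collagen and the chondrocyte list, and Col1a1 in both the collagen and the osteoblast list. Of the osteoblast sums, Col1a1 held 61075 and 57192 CPM in Ovx 1 and 2 and 62492 and 88749 CPM in Sham 1 and 2. It was not called (edgeR adjusted p = 0.258). The part of the fibroblast and pericyte lists in the changes of the collagen machinery was likewise not tested.

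Markers of vessel, blood, bone-resorbing and fat cells were read as well, beside the same shares of all genes (1.20% lower, 2.98% higher). The 6 endothelial markers summed to 38.1 and 53.8 CPM in Ovx 1 and 2, against 7.003 and 37.0 CPM in Sham 1 and 2, with 0 called by edgeR, DESeq2 or limma-voom and 0 at an unadjusted p under 0.05, and Emcn and Cdh5 had 0 counts in Sham 1. The 6 myeloid markers, 2 of them called higher, summed to 153 and 246 CPM in Ovx 1 and 2, against 80.1 and 50.5 CPM in Sham 1 and 2. Of 4 tested erythroid markers 1 was called higher, with sums over the 5 listed of 112 and 142 CPM in Ovx 1 and 2, against 37.7 and 21.9 CPM in Sham 1 and 2. Of 3 tested osteoclast markers 1 was called higher and 1 lower, the 4 listed summing to 357 and 347 CPM in Ovx 1 and 2, against 203 and 279 CPM in Sham 1 and 2. The 3 adipocyte markers summed to 2.11 and 3.53 CPM in Ovx 1 and 2, against 1.16 and 1.07 CPM in Sham 1 and 2. Of the 6 skeletal stem and progenitor markers, 3 were called higher (Prrx1, Pdgfra and Ly6a) and 1 lower (the sort antigen Cd200).

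**Figure D5:**
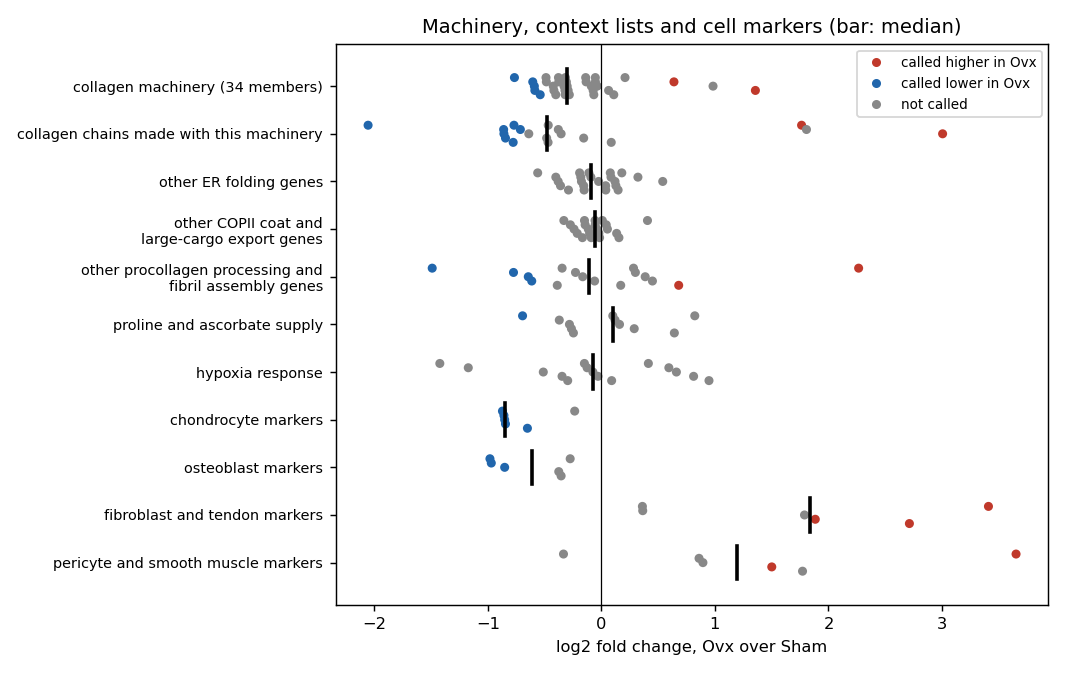
Log2 fold change (Ovx over Sham, horizontal axis) of every tested gene of the collagen machinery, the 6 context lists and 4 lists of cell markers, each point a gene and each black bar the list's median; blue genes were called lower and red ones higher. The machinery's median (-0.31) lies between that of the collagen chains (-0.48) and those of the other ER folding (-0.09) and COPII genes (-0.06).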

How the data were processed

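The authors deposited raw read counts per gene as 1 table covering all 4 libraries. Tools named in the submitters' processing notes are Trim Galore 0.6.6 and featureCounts 2.0.1, with GRCm38 (mm10) as genome build. Not given in the sources used here are the aligner, annotation release and strand setting, so a gene and a partner overlapping it on the other strand may share reads. Of the 34 members, 5 share over 10% of their exon length with another gene. Per the labels' protocols, a SMARTER kit was used on mRNA.

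GENCODE M21 (GRCm38) gave symbols, positions and exon lengths for 55227 of 55487 identifiers. Genes were kept by filterByExpr at its defaults (17120 genes), scaled by TMM and compared as Ovx over Sham with the two-sided quasi-likelihood test of edgeR 4.0.16 in R 4.3.3 (group alone, 2 residual degrees of freedom, common biological coefficient of variation 0.317). Adjusted p is Benjamini-Hochberg over all 17120 genes, and a gene is called under 0.05. The SE is the log2 fold change divided by the square root of F. CPM per kb uses the summed exon length. Alternatives used limma 3.58.1, DESeq2 1.42.0 and an offset fitted with mgcv 1.9.3. The fits were checked on simulated data. Every member was described, with its value in each library where it was called or averaged at least 50 CPM, and of each context list up to 4 called genes a direction or, with none called, the 2 with the smallest p. The members and lists were chosen with earlier results of these data known.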

Additional observations from a re-analysis of the deposited data

How the results depend on the processing

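Under 13 alternatives, 380 of 441 values of single members kept their direction and their side of the threshold. Many of these belong to members that were not called and stayed so. A call was lost in 19 values, all of the 7 called members, and gained in 24, and the direction reversed in 18. The number of genes called (716) was 1656 with no filter (1112 higher, 544 lower), 1105 at a mean of 5 CPM (406 lower) and 1416 with the DESeq2 test (930 higher, 486 lower). Genes called lower numbered 313 with limma-voom. With 1 library left out, calls ranged from 0 to 1835 (0 to 1277 higher, 0 to 558 lower), the 0 without either Ovx library (1788 genes without Ovx 1 and 1618 without Ovx 2 at an unadjusted p under 0.05 in edgeR). Members called lower (5) were 1 with library totals, 9 at a mean of 5 CPM, where Tll1 was not tested, 11 with the DESeq2 test, 10 with limma-voom and 0 to 7 with 1 library left out. Members called higher (2) were 0 to 3 with 1 library left out. The members' median was -0.20 with library totals and -0.38 to -0.19 with 1 library left out.

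The log2 fold change reversed with library totals for Plod3 (0.035), P3h3 (0.045), Crtap (0.053), Mia3 (0.053), Sec24d (0.018) and Lox (0.073), and with limma-voom for P3h3 (0.0010). With 1 library left out it reversed for Plod3 (-0.17 to 0.042), P3h3 (-0.44 to 0.45), Crtap (-0.15 to 0.064), Fkbp7 (-0.065 to 0.22), Mia3 (-0.090 to 0.013), Sec24d (-0.16 to 0.0066), Tll1 (-0.48 to 0.82), Lox (-0.29 to 0.29) and Loxl4 (-0.62 to 0.046). None of these was called where it reversed (edgeR or limma-voom adjusted p between 0.258 and 0.999). Loxl4 was called lower without Sham 1 (edgeR adjusted p = 0.0410). The cause was not tested.

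The replicate numbers do not pair the samples by the labels, and same-numbered deviations correlated at 0.0043 across genes. With the replicate block 1074 genes were called, 329 lower and 745 higher, and 6 members lower and 2 higher, the added call being Loxl3 (edgeR adjusted p = 0.0377). It ended no member's call.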
